A study of Mus musculus with 1790 samples.

Results

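The AMPA and kainate receptor subunits are 9 genes, Gria1, Gria2, Gria3 and Gria4 for AMPA receptors and Grik1, Grik2, Grik3, Grik4 and Grik5 for kainate receptors, and they were taken as a list by name. All 9 had a row in each of the 7 count tables, out of 49915 gene names over all tables, and they were followed in mouse cortical interneurons and their embryonic precursors. The postnatal cells were single cells of the somatosensory cortex from untreated Htr3a-GFP mice that also carried Hmx3-Cre and the R26tdTOM reporter. In these mice GFP follows the Htr3a transgene, and tdTOM marks any cell that used Hmx3-Cre itself or through its ancestors, Hmx3 being a gene of the embryonic preoptic area (POA). Every sorted postnatal cell carried GFP, and the sorts differed in tdTOM. At postnatal day (P) 15 the tdTOM+ sort held 36 cells labelled Lamp5 Plch2 Dock5 and 33 labelled Lamp5 Lsp1, and at P30 it held 76 and 35. These are the Dock5+NGCs and Lsp1+NGCs, both neurogliaform cells (NGCs). The tdTOM- sort gave 14 (P15) and 21 (P30) cells of other Lamp5 labels, 63 and 47 Vip cells, and 20 and 28 Lsp1 cells, while 476 sorted cells with an inconclusive label entered no comparison. A further 47 tdTOM+/GFP+ cells were patched in slices at P14 to P25 and assigned as 20 Dock5+NGCs and 27 Lsp1+NGCs. By the study's methods the sorted postnatal cells came from dissected upper layers, whereas cells were patched in upper and deep layers. The embryonic (E14.5) collections were 418 tdTOM+/GFP+ POA cells of the same genotype, 352 wild-type POA cells marked with FlashTag, a dye taken up by cells dividing at the ventricle, and wild-type droplet libraries of 2106 POA and 4115 caudal ganglionic eminence (CGE) cells. For the FlashTag embryos the labels give the strain C57BL/6, whereas the study's methods name CD1 for such injections and keep the reporter line on C57BL/6. For the droplet embryos the methods name CD1 in one place and C57BL/6 in another. The 2 droplet libraries shared 12 cell barcodes.

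AMPA and kainate receptors are tetrameric channels opened by glutamate, and AMPA receptors carry most of the fast excitatory current onto cortical neurons. The protein of Gria2, GluA2, makes AMPA receptors impermeable to calcium once its transcript is edited, so the amount of Gria2 beside the other Gria genes is a textbook determinant of calcium entry in interneurons. In the kainate family, the proteins of Grik1, Grik2 and Grik3 (GluK1 to GluK3) can form channels by themselves, whereas those of Grik4 and Grik5 (GluK4 and GluK5) bind the agonist with high affinity and need one of the others as a partner. Kainate receptors with GluK1 are known from cortical and hippocampal interneurons, where they act both on cell excitability and on GABA release.

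The site that ties the sequences of these genes to calcium entry is the Q/R site, a glutamine codon in the pore loop whose adenosine can be edited in Gria2, Grik1 and Grik2. The coding sequence around it is shown for Gria2, for Gria4, and for the kainate genes that passed 2-fold between the sorted NGC subtypes, Grik1 at P15 and Grik2 at P30, with the Q/R codon in capitals. The sequences come from GENCODE M21 transcripts on GRCm38 and are written 5′ to 3′ on the coding strand. The codon lies in exon 11 of 16 in Gria2 (chr3:80706911-80706913, minus strand), in exon 12 of 17 in Gria4 (chr9:4464137-4464139, minus strand), in exon 12 of 17 in Grik1 (chr16:87940542-87940544, minus strand) and in exon 13 of 17 in Grik2 (chr10:49244329-49244331, minus strand). Each window of 60 bases crosses an exon junction in these 4 transcripts.
Gria2: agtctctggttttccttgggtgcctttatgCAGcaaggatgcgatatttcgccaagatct
Gria4: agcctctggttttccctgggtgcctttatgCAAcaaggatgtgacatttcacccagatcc
Grik1: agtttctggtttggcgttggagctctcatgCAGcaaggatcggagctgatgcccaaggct
Grik2: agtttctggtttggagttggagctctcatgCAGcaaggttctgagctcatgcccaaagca
Gria2 and Gria4 shared 52 of the 60 bases, Grik1 and Grik2 shared 54, and Gria2 and Grik1 shared 40. The codon was CAG in 8 of the 9 members and CAA in Gria4 alone. The deposited values are counts per gene, so they show neither the edited share of a transcript nor its flip and flop splice forms.

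Levels are given as depth-scaled counts (CPM), a gene's counts summed within a group and scaled to the total counts of that group. Fold changes are log2 values after adding 10 CPM to both groups, and a gene is called past 2-fold at an absolute log2 value of 1 or more. The animal behind a cell is not named, and brains were pooled for the sorted cells, so each group was treated as 1 sample and no test was run. The ranges given are exact 95% intervals, Poisson for CPM and Clopper-Pearson for shares of cells and for shares of family counts. They cover counting error only and are too narrow for CPM and for shares of counts, because a gene found in only a few cells came with a mean of 21.4 counts per positive cell at P15, 22.5 at P30 and 32.7 in patch-seq. Whether the patch-seq values count molecules or reads is not clear from the sources used here. The authors had a trained classifier assign the subtype labels from these expression values. They name Grik1, Grik2 and the NMDA receptor gene Grin3a for Dock5+NGCs, so differences between labels are descriptions of the labelled cells.

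The groups summed to 4464427 to 17770889 counts at P15 and 5911623 to 19168453 at P30 for the sorted cells compared here, with a median of 206939 to 267282 counts per cell. The patched cells were unequal in depth, with a median of 378452 counts in the 20 Dock5+NGCs and 1037400 in the 27 Lsp1+NGCs. A single patched Lsp1+NGC of run 7 held 15968484 of the 53198151 counts of its group. Markers of the labels are given as a description, because the labels were assigned from the same expression values. Vip was at 7957 CPM in Vip cells and at 218 and 328 CPM in Dock5+NGCs and Lsp1+NGCs at P15, and Ndnf, a marker of layer 1 NGCs, was at 3923, 991 and 226 CPM in Dock5+NGCs, Lsp1+NGCs and Vip cells. The Lsp1 gene itself did not set the subtypes apart in the sorted cells, at 13.0 CPM in Dock5+NGCs and 14.0 in Lsp1+NGCs at P15 and at 11.5 and 13.5 at P30.

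In the AMPA family Gria2 was present throughout and the other 3 genes set the classes apart. Gria2 was counted in 100% of the cells of every sorted postnatal group compared here, and no patched cell lacked it. At P15 it stood at 1446 CPM (1423 to 1469) for Dock5+NGCs and 1486 (1462 to 1510) for Lsp1+NGCs, against 2011 (1991 to 2032) in Vip cells and 1197 (1165 to 1230) in other Lamp5 cells. At P30 the levels were 1346, 1368, 1954 and 1248 CPM in the same order. Vip cells were thus highest and other Lamp5 cells lowest of these 4 groups at both ages. The intervals of the NGC subtypes overlapped at P15 and at P30, and single cells overlapped widely, from 459 to 3827 CPM in Dock5+NGCs and from 308 to 10302 in Lsp1+NGCs at P15.

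Set against the other 3 AMPA genes, Gria2 took a smaller part of the family in NGCs than in Vip and other Lamp5 cells. Of all Gria counts at P15, Gria2 made up 65.3% (64.7% to 65.9%) in Dock5+NGCs and 61.5% (60.9% to 62.2%) in Lsp1+NGCs, compared with 70.2% (69.8% to 70.5%) in Vip cells and 78.3% (77.3% to 79.2%) in other Lamp5 cells. At P30 the shares were 63.4%, 62.7%, 77.8% and 75.5%. The tdTOM- cells with the Lsp1 label had 61.8% at P15 and 61.5% at P30, whereas tdTOM+ cells of other Lamp5 labels had 76.2% and 66.8%. Averaged within cells the P15 shares were 68.6%, 59.8%, 73.0% and 77.9%, in which Dock5+NGCs came nearer to Vip cells. A small part of Gria2 was not particular to NGCs. The 12 tdTOM- Sncg or Serpinf1 cells at P15, which entered no comparison, had 770 CPM of Gria2 and 385 of Gria1. They had 72.3 CPM of Gria3 and 75.3 of Gria4. The make-up of both families is drawn for the main groups in the stacked bars.

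**Figure D1:**
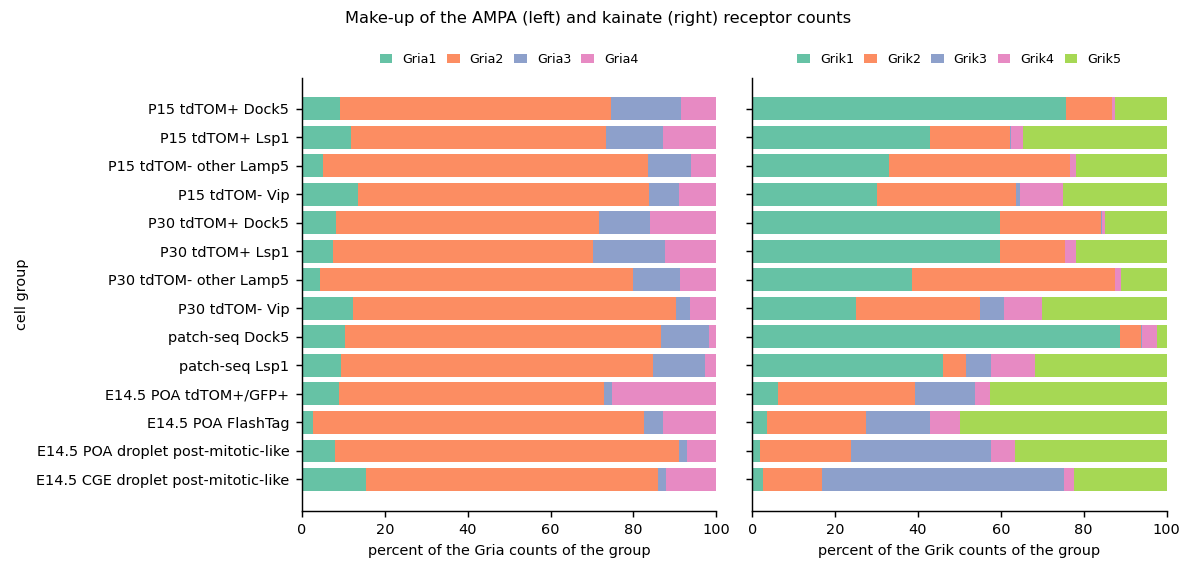
Share of each gene in the summed Gria counts (left) and Grik counts (right) of each cell group, in percent on the horizontal axis, with 1 bar per group. Gria2 takes 61.5% to 65.3% of the Gria counts in sorted tdTOM+ NGCs and 70.2% to 78.3% in tdTOM- Vip and other Lamp5 cells, and Grik1 takes 75.7% of the Grik counts in Dock5+NGCs at P15 and 88.7% in patched Dock5+NGCs.

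Among the other AMPA genes, Gria3 was higher in both NGC subtypes than in Vip cells, and in the summed counts all 3 were higher than in tdTOM- other Lamp5 cells. Gria3, which codes for GluA3, was at 375 CPM in Dock5+NGCs and 329 in Lsp1+NGCs at P15, and at 212 in Vip and 159 in other Lamp5 cells. At P30 it was at 262, 378, 89.5 and 188 CPM. Single cells of all 4 groups overlapped at both ages. The median Vip cell had 20.7 CPM of Gria3 at P15 and 7.73 at P30, whereas the median Lsp1+NGC had 246 and 256 CPM.

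Gria4, which codes for the fast-gating GluA4, was at 189 CPM in Dock5+NGCs, 313 in Lsp1+NGCs, 258 in Vip and 94.5 in other Lamp5 cells at P15. At P30 it was at 340.5, 270.1, 157 and 144 CPM. Other Lamp5 cells were lowest at both ages, with an interval that overlapped that of Vip cells at P30, while the order of the NGC subtypes differed between the ages. At P15 the log2 fold of Dock5+NGCs over Lsp1+NGCs was -0.70 (-0.81 to -0.59), and at P30 it was 0.32 (0.24 to 0.41). Neither passed 2-fold, and the P30 value was -0.27 when log2 values were averaged over single cells.

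Gria1, which codes for GluA1, was lowest in other Lamp5 cells, at 79.3 CPM at P15 and 73.2 at P30, and highest in Vip cells, at 387 and 310.2 CPM. NGCs lay between, with 205 CPM in Dock5+NGCs and 286 in Lsp1+NGCs at P15 and 175 and 166 at P30. The intervals of the 2 NGC subtypes overlapped at P30 and not at P15. In single cells Gria1 ran from 0 to 788 CPM with a median of 85.6 in Dock5+NGCs and from 0 to 978 with a median of 133 in Lsp1+NGCs at P15, so the ranges of the cells were nearly the same.

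**Figure D2:**
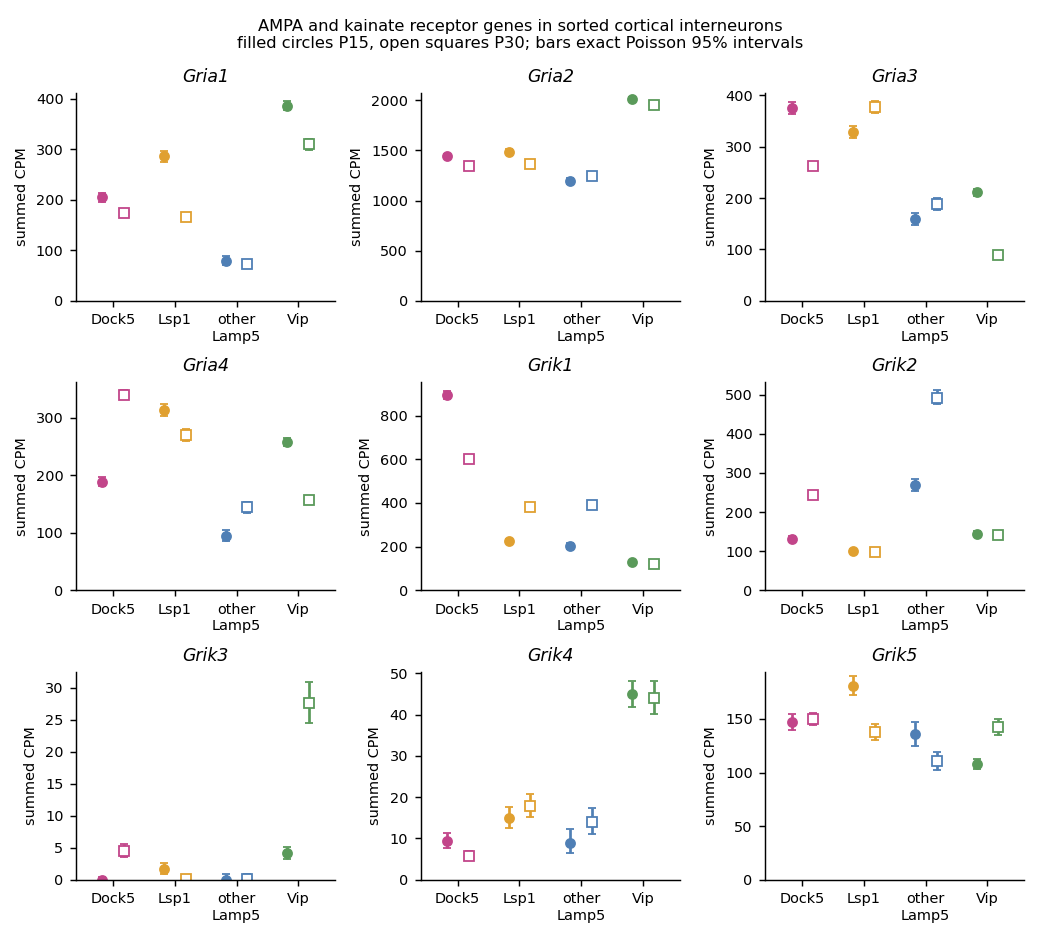
Summed CPM (vertical axis, linear from 0) of the 9 genes in tdTOM+ Dock5+NGCs and Lsp1+NGCs and in tdTOM- other Lamp5 and Vip cells, as filled circles at P15 and open squares at P30, with exact Poisson 95% intervals as bars. Grik1 is highest in Dock5+NGCs at both ages (896 and 601 CPM), Grik2 in other Lamp5 cells (269 and 493 CPM), and Gria1, Gria2 and Grik4 in Vip cells.

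Among the kainate genes, Grik1 set Dock5+NGCs apart. At P15 all 36 Dock5+NGCs had a Grik1 count, from a lowest cell of 147 CPM over a median of 875 to a highest of 2343. Among Lsp1+NGCs 29 of 33 cells had a count, with a lowest of 0, a median of 152 and a highest of 1218 CPM. Of the 36 Dock5+NGCs, 34 were above the median Lsp1+NGC, and 2 of the 33 Lsp1+NGCs were above the median Dock5+NGC, so the groups overlapped only in part. Summed, 896 CPM (878 to 914) against 224 CPM (215 to 233) gave a log2 fold of 1.95 (1.87 to 2.04).

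At P30 the distance was smaller. Dock5+NGCs had a lowest cell of 0, a median of 492 and a highest of 2840 CPM of Grik1, and Lsp1+NGCs had 0, 278 and 2323 CPM. The cells overlapped over nearly the whole range, with 55 of 76 Dock5+NGCs above the median Lsp1+NGC and 8 of 35 Lsp1+NGCs above the median Dock5+NGC. The log2 fold was 0.65 (0.58 to 0.72), and it was 1.36 when log2 values were averaged over single cells. The share of cells with a Grik1 count was 96.1% for Dock5+NGCs and 88.6% for Lsp1+NGCs. Thinned to 141194 counts per cell, it was 100% and 85.3%.

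Within the kainate family the part of Grik1 differed between the subtypes at P15 and not in the summed counts at P30. Grik1 made up 75.7% (74.9% to 76.4%) of all Grik counts in Dock5+NGCs and 42.9% (41.5% to 44.3%) in Lsp1+NGCs at P15, but 59.8% (59.1% to 60.5%) and 59.9% (58.7% to 61.1%) at P30. Averaged within cells, the P30 shares were 57.8% for Dock5+NGCs and 46.7% for Lsp1+NGCs. The tables of the ages were made separately and share 11979 gene rows, and levels were not compared between them.

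Grik2, which codes for GluK2, followed another order. It was highest in other Lamp5 cells, at 269 CPM (254 to 285) at P15 and 493 CPM (475 to 511) at P30, where every cell had a count and the lowest cell had 4.86 and 45.2 CPM. In Dock5+NGCs it was at 132 and 244 CPM, in Lsp1+NGCs at 100.2 and 98.2, and in Vip cells at 145 and 142. Among NGCs, a median Dock5+NGC had 82.1 CPM at P15 and 93.4 at P30, and a median Lsp1+NGC 41.8 and 17.3. The P15 log2 fold of Dock5+NGCs over Lsp1+NGCs was 0.37, with -0.29 in well rows 1 to 20 of the chips and 1.81 in rows 21 to 40. Of the 76 Dock5+NGCs at P30, 56 were above the median Lsp1+NGC, and the ranges overlapped, from 0 to 2425 CPM and from 0 to 650.1 CPM.

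Grik3, which codes for GluK3, had few counts in the sorted NGCs. In the 36 Dock5+NGCs at P15 it had 0 counts, where 3 counts would be 0.284 CPM, and in Lsp1+NGCs it had 16 counts in 3 cells. A single positive cell could bring more than 3 counts, so 36 cells without a count do not place the level below 0.284 CPM. At P30 it had 86 counts in 2 of 76 Dock5+NGCs and 1 count in Lsp1+NGCs. The patched cells held 1.10 CPM in Dock5+NGCs, from 3 of 20 cells, and 11.0 CPM in Lsp1+NGCs, from 6 of 27 cells, of which a single cell at 281 CPM gave 82.4% of the counts. Vip cells held 4.11 CPM at P15 and 27.6 CPM at P30, where 7 of 47 cells had a count.

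The high-affinity subunits were split. At P15 Grik5 had a count in 91.7% of the Dock5+NGCs and 93.9% of the Lsp1+NGCs, at 147 and 181 CPM, and stayed within 108 to 181 CPM over the 4 groups at P15 and 111 to 149.6 CPM at P30. Grik4 was at 9.38 and 14.9 CPM in the NGC subtypes at P15 and at 5.69 and 17.8 CPM at P30, and at 44.8 and 44.0 CPM in Vip cells. A Grik4 count was found in 6 of 36 Dock5+NGCs and 25 of 63 Vip cells at P15, and in single cells it reached 309 and 1125 CPM.

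In the comparison of the NGC subtypes, 1 of the 9 members passed 2-fold at P15 (Grik1, higher in Dock5+NGCs) and 1 at P30 (Grik2, higher in Dock5+NGCs, log2 fold 1.23, 1.11 to 1.35). Of all genes that reached 10 CPM in either group, 19.3% passed 2-fold at P15 and 19.4% at P30, so the members' share was not above the background. The median log2 fold of the 9 members was -0.22 at P15 and 0.11 at P30, and that of all genes was -0.01 and 0.01. The P30 fold of Grik2 was 0.79 when 100 CPM were added and 0.98 when both sorts were pooled by label.

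**Figure D3:**
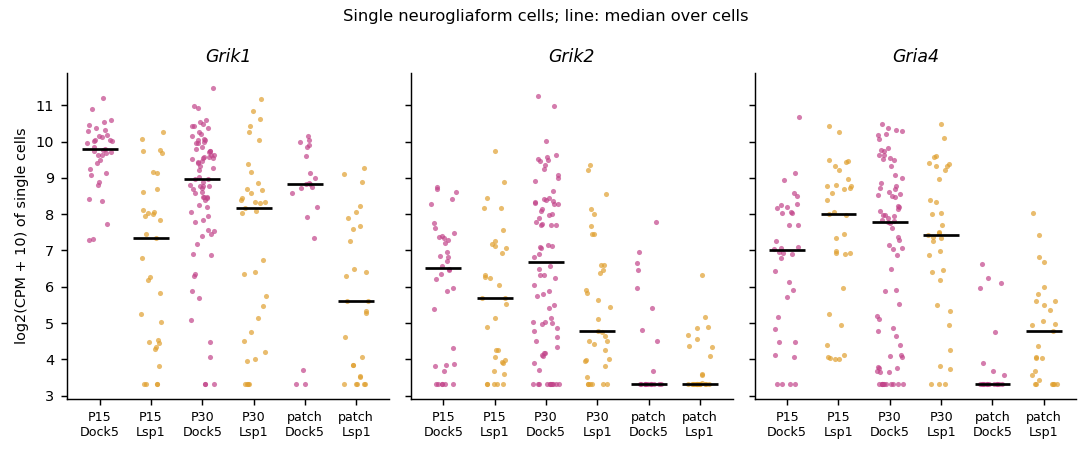
Log2(CPM + 10) of single Dock5+NGCs and Lsp1+NGCs (points) for Grik1, Grik2 and Gria4 at P15, at P30 and in patch-seq, with the median over cells as a line. For Grik1 the Dock5+NGCs lie mostly above the median Lsp1+NGC (34 of 36 cells at P15, 55 of 76 at P30 and 17 of 20 patched cells), while for Gria4 the median Dock5+NGC is below the median Lsp1+NGC at P15 (118 and 245 CPM) and above it at P30 (209 and 163 CPM).

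The patched cells were a further set of cells, taken one by one with a pipette. Their subtypes were assigned by the authors' classifier, which was trained on the sorted cells and published adult cells. A like direction in patch-seq for genes that it uses was therefore partly set by the labelling. Grik1 ran from 0 to 1127 CPM with a median of 446 in Dock5+NGCs and from 0 to 608 with a median of 38.5 in Lsp1+NGCs. The groups overlapped, with 17 of 20 Dock5+NGCs above the median Lsp1+NGC and 3 of 27 Lsp1+NGCs above the median Dock5+NGC. The cells came from 8 runs that each held both subtypes, but ages were not matched within runs. In run 3 the Dock5+NGCs were from P25 and the Lsp1+NGCs from P15, so subtype and age cannot be told apart there. Runs 4, 10 and 11 held 1 Dock5+NGC each and run 6 held 1 Lsp1+NGC, so the values within these runs rest on single cells. Within runs Grik1 was higher in Dock5+NGCs in 7 of 8, and past 2-fold in 6 of these, whereas in run 11, with a single Dock5+NGC at 0 CPM, it was at 199.7 CPM in the 5 Lsp1+NGCs.

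In patch-seq 3 of the 9 members passed 2-fold, against 18.3% of all genes. Grik1 was at 539.7 CPM in Dock5+NGCs and 86.2 in Lsp1+NGCs, a log2 fold of 2.51 (2.44 to 2.59), and Grik2 at 31.6 and 10.6 CPM, a log2 fold of 1.01 (0.82 to 1.21). Grik5 was lower in Dock5+NGCs, at 14.6 and 59.3 CPM, a log2 fold of -1.495 (-1.69 to -1.29). Without the deepest Lsp1+NGC the Grik5 fold was -0.82, without run 7 it was -0.74, and without the 3 cells over 15% mitochondrial counts it was -0.80. Within runs Grik2 was higher in Dock5+NGCs in 4 of 8 and in Lsp1+NGCs in 3. The largest of these log2 folds, 3.95, was that of run 3, in which the subtypes also differed in age. A Grik2 count was found in 9 of 20 and 12 of 27 cells, and its fold was below 1 without run 3, 6 or 11 (0.96, 0.91 and 0.91) and without the cells over 15% mitochondrial counts (0.97), and the Grik1 fold lay between 1.75 and 3.12 over the runs left out in turn.

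In the summed counts all 4 AMPA genes were lower in patched Dock5+NGCs than in Lsp1+NGCs, and for Gria1 and Gria3 the sign of the summed fold turned without a few cells. The log2 folds were -0.34 for Gria1, -0.50 for Gria2, -0.60 for Gria3 and -0.79 for Gria4, none past 2-fold. Gria4 was lower in Dock5+NGCs within all 8 runs, 5 of them past 2-fold, and had a count in 40.0% of the Dock5+NGCs (8 of 20) and 77.8% of the Lsp1+NGCs (21 of 27). After thinning to 101704 counts these shares were 23.5% and 68.0%. Without the deepest cell the folds of Gria1 and Gria3 were 0.03 and 0.09, and without the cells over 15% mitochondrial counts 0.20 and 0.13. Without run 7 the Gria1 fold was 0.18, while within runs Gria1 was lower in Dock5+NGCs in 7 of 8, 5 of them past 2-fold, with a median log2 fold of -1.63. For both Gria1 and Gria4 the runs past 2-fold included runs 4, 10 and 11, each with a single Dock5+NGC. Run 6, in which Gria1 was higher in Dock5+NGCs, held a single Lsp1+NGC. Gria3 was lower in Dock5+NGCs in 5 of 8 runs.

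Markers of other cells were also lower in patched Dock5+NGCs. The 6 oligodendrocyte-lineage genes summed to 466 CPM against 1873, the 5 astrocyte genes to 408 against 914, the 5 microglia genes to 135 against 274 and the 7 glutamatergic genes to 53.1 against 297. All genes of these 4 lists had a count in both groups. In the sorted NGCs the glutamatergic genes with a row summed to 1.10 to 15.4 CPM. Glutamatergic cells express AMPA receptor genes and Grik5 as well, and the part of such RNA in the patch-seq differences was not tested.

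**Figure D4:**
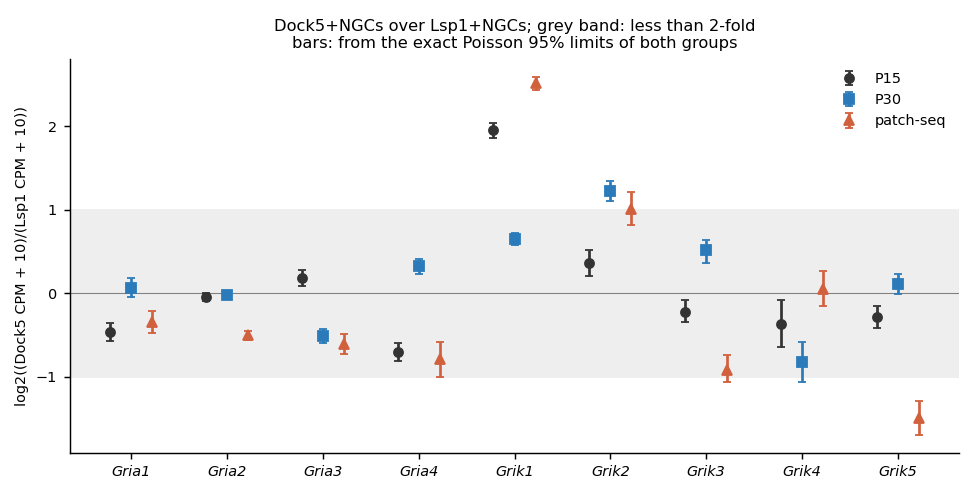
Log2 fold of Dock5+NGCs over Lsp1+NGCs (vertical axis, after adding 10 CPM) for the 9 genes at P15, P30 and in patch-seq, with bars from the Poisson 95% limits of both groups and the range of less than 2-fold in grey. Grik1 and Grik2 lie above 0 in all 3 sets of cells (Grik2 at P15 was at -0.29 in well rows 1 to 20), Gria2 lies near 0 at both ages, and Grik5 is past 2-fold below 0 in patch-seq alone (-0.82 without the deepest cell).

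Compared with the tdTOM- Vip cells, the tdTOM+ NGCs had more Grik1 and Gria3 and less Grik4, and label and sort differ together here. At P15 2 of 9 members passed 2-fold (17.4% of all genes), namely Grik1 at 574 CPM in NGCs and 129.9 CPM in Vip cells (log2 fold 2.06, 1.98 to 2.14) and Grik4 at 12.0 and 44.8 CPM (-1.32, -1.50 to -1.13). At P30 4 of 9 passed (23.2% of all genes). Grik1 was at 526 and 118 CPM (log2 fold 2.06, 1.97 to 2.16) and Gria3 at 301 and 89.5 CPM (1.65, 1.53 to 1.76), while Grik3 was at 3.00 and 27.6 CPM (-1.53) and Grik4 at 9.79 and 44.0 CPM (-1.45). Gria1 and Gria2 were lower in NGCs at both ages without passing 2-fold, with log2 folds of -0.64 and -0.45 at P15 and -0.82 and -0.53 at P30. The Grik4 difference at P15 turned to 0.43 in well rows 1 to 20 of the chips. At P15 tdTOM+ Vip cells had 121 CPM of Grik1, 70.6 of Gria3 and 28.1 of Grik4, against 574, 353 and 12.0 in NGCs. At P30 they had 342, 141 and 32.2 CPM, against 526, 301 and 9.79 in NGCs. Within the tdTOM+ sort the directions were thus the same, with Grik1 closer at P30 than against the tdTOM- Vip cells.

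Compared with the tdTOM- other Lamp5 cells, the tdTOM+ NGCs had more Gria1 and Gria4 and less Grik2 at both ages. Label and sort differ together in this comparison. At P15 5 of 9 members passed 2-fold (24.3% of all genes), with log2 folds of 1.51 for Gria1, 1.11 for Gria3, 1.31 for Gria4, 1.45 for Grik1 and -1.14 for Grik2. At P30 3 of 9 passed (28.6% of all genes), with 1.13 for Gria1, 1.09 for Gria4 and -1.30 for Grik2. Gria3 was at 0.65 at P30, with -0.61 in well rows 21 to 40 and 3.01 in rows 1 to 20. For Grik1 the intervals of Lsp1+NGCs and other Lamp5 cells overlapped, at 224 and 204 CPM at P15 and 380 and 390 at P30. Dock5+NGCs had 896 and 601 CPM, so the P15 fold of Grik1 rested on Dock5+NGCs. Other Lamp5 cells of the tdTOM+ sort had 388 and 258 CPM of Grik1. The other Lamp5 groups were small, with 14 and 21 cells, and a single cell gave 41.5% of the Gria1 counts at P15. When tdTOM+ and tdTOM- cells were pooled by label, 3 members passed at P15 and 1 at P30. At P15 tdTOM+ other Lamp5 cells had 88.0 CPM of Gria1, 148 of Gria4 and 193 of Grik2, against 244, 248 and 117 in NGCs. At P30 they had 152, 308 and 465 CPM, against 172, 317 and 194 in NGCs. Within the tdTOM+ sort Gria1 and Gria4 were thus close at P30, while Grik2 was lower in NGCs at both ages. The astrocyte gene Slc1a2 was the only counted gene of the 5 astrocyte markers in other Lamp5 cells, at 797 CPM at P15, against 418 CPM for the list in Dock5+NGCs and 370.3 in Lsp1+NGCs, and its part in these differences was not tested.

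Lsp1 cells could be compared between the sorts. At P15 Gria1 alone passed 2-fold (23.7% of all genes), at 286 CPM in tdTOM+ and 129 in tdTOM- Lsp1 cells, and at P30 none of the 9 did (30.4% of all genes). Grik1 was higher in the tdTOM+ cells at both ages, at 224 against 123 CPM and 379.5 against 218 CPM, with log2 folds of 0.81 (0.65 to 0.97) and 0.77 (0.66 to 0.89). Gria4 was lower at both, with -0.31 and -0.44.

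Most sorted NGCs held a broad set of subunits, and so did Vip and other Lamp5 cells. The median NGC had a count of 7 of the 9 genes at P15 in both subtypes, and at P30 the medians were 6 for Dock5+NGCs and 7 for Lsp1+NGCs. Vip cells and other Lamp5 cells each had medians of 7 at P15 and 6 at P30. At P15 the share of cells with a count of all 4 AMPA genes was 80.6% (64.0% to 91.8%) among Dock5+NGCs and 93.9% (79.8% to 99.3%) among Lsp1+NGCs, against 65.1% of Vip cells and 57.1% of other Lamp5 cells. After thinning to 131172 counts the shares were 78.1%, 93.8%, 54.7% and 42.9%, in the same order. Cells with both Grik1 and Grik2 made up 83.3% of Dock5+NGCs, 78.8% of Lsp1+NGCs, 61.9% of Vip cells and 14 of 14 other Lamp5 cells. The intervals of the 2 NGC subtypes overlapped in both measures. At P30 all 4 AMPA genes were counted in 57.9% (46.0% to 69.1%) of Dock5+NGCs and 71.4% of Lsp1+NGCs. For Vip cells the P30 share was 53.2% (38.1% to 67.9%), with an interval that overlapped that of Dock5+NGCs, and for other Lamp5 cells it was 42.9%.

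Around the receptor genes, 50 listed genes for auxiliary subunits, scaffolds, organisers, editing enzymes and other glutamate receptors were examined for Dock5+NGCs over Lsp1+NGCs. At P15, of 44 with a row, 6 were past 2-fold higher in Dock5+NGCs and 3 in Lsp1+NGCs. At P30 it was 5 and 2 of 46, and in patch-seq 2 and 6 of 50. Of the listed genes, 35, 36 and 38 reached 10 CPM in either group at P15, at P30 and in patch-seq. Of all genes at that level, 19.3%, 19.4% and 18.3% passed 2-fold, and whether the listed genes differ from this was not tested. Those with the firmest fold over the 2 ages, taking the lesser one, were Grin3a, Neto2 and Cpt1c in one direction and Grin2b, Grin2a and Grip1 in the other.

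Grin3a, which codes for an NMDA receptor subunit that lowers calcium flow, was at 487 CPM in Dock5+NGCs and 72.4 in Lsp1+NGCs at P15, 258 and 106 at P30, and 101 and 26.0 in patch-seq. Neto2, an auxiliary subunit of kainate receptors, was at 100.03 and 82.6 CPM at P15 and at 123 and 55.7 at P30, where it passed 2-fold. Its relative Neto1 went the other way, at 43.8 and 110.7 CPM at P15 (log2 fold -1.17) and 58.8 and 81.2 at P30 (-0.41). In patch-seq the log2 folds of Neto2, Neto1 and Grip1 were -0.15, 0.11 and 0.36, each with the opposite sign to that at both ages. The NMDA receptor genes Grin2a and Grin2b were lower in Dock5+NGCs in all 3 sets of cells, with Grin2a at 481 and 1302 CPM and Grin2b at 713 and 1168 CPM at P15. The editing enzyme Adarb1 (ADAR2), which edits the Q/R site shown in Gria2, was at 230.4 and 214.6 CPM at P15 and 251.8 and 247.3 CPM at P30, log2 folds of 0.10 and 0.02.

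Some genes had a pattern over the 10 cell groups of each age like that of a member, by the smaller of the Pearson correlations at P15 and P30 among 5922 genes. For Grik1 these were Rasgrf1 (0.87) and Ndnf (0.86), for Gria3 Rapgef4 (0.92) and the GABA-synthesis gene Gad2 (0.92), and for Gria1 Cit (0.88) and Vsnl1 (0.81). For Gria2 they were Ensa (0.87) and Limch1 (0.81), for Gria4 Nos1 and Zfp692 (0.84 each), for Grik2 Terf2 (0.82) and Ptprt (0.79), and for Grik5 Vgll4 (0.83) and Arhgap6 (0.79). Grik3 and Grik4 were below the level set for this ranking. The groups of one age share a chip table and its cells were labelled from the same values.

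At E14.5 Gria1, Gria2 and Gria4 were the members that differed most between tdTOM+/GFP+ cells and FlashTag cells. Gria1 was at 58.9 and 6.57 CPM (log2 fold 2.06, 1.99 to 2.12), Gria2 at 419 and 192 CPM (1.08, 1.05 to 1.11) and Gria4 at 166 and 30.7 CPM (2.11, 2.06 to 2.16), all higher in tdTOM+/GFP+ cells. These were 3 of 9 members, against 22.8% of all genes. The median log2 fold of all genes was -0.11, and whether scaling or expression set this value was not tested. Gria4 was counted in 74.2% of tdTOM+/GFP+ cells and 9.66% of FlashTag cells, and Gria1 in 47.1% and 5.68%. Thinned to 169523 counts, the shares were 69.1% and 7.29% for Gria4 and 42.7% and 4.86% for Gria1.

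In single cells Gria2 ran from 0 to 2694 CPM with a median of 305 in tdTOM+/GFP+ cells and from 0 to 6045 with a median of 3.56 in FlashTag cells. The highest FlashTag cells were thus above the highest tdTOM+/GFP+ cells, and the groups overlapped over the whole range. The other members differed less. Gria3 was at 12.5 and 11.3 CPM (log2 fold 0.08), and the kainate genes had log2 folds from -0.23 for Grik4 to 0.62 for Grik2. Grik1, at 7.46 and 3.51 CPM, was counted in 31 of 418 and 4 of 352 cells. The 2 collections come from separate tables, and with totals over the gene rows they share the 3 folds were 2.06, 1.08 and 2.11. With mean CPM of single cells Gria2 was at 0.75. The 7 progenitor genes summed to 237 CPM in tdTOM+/GFP+ cells and 6162 CPM in FlashTag cells, and the 7 post-mitotic GABAergic genes to 4977 and 848 CPM, so the groups differed in maturity markers as well as in genotype and, by the study's methods, in strain, and the parts of these cannot be told apart.

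The droplet libraries hold dividing and post-mitotic cells of one genotype side by side. Hmx3 was at 16.7 CPM in the POA and 0.182 CPM in the CGE library. Cells with more counts of the progenitor genes than of the post-mitotic genes were called progenitor-like (539 POA and 1336 CGE cells) and the reverse post-mitotic-like (1558 and 2738 cells), with 9 and 41 ties left out. Of these cells, 61 POA and 182 CGE cells had sums within 2 counts of each other. Median depth was 7595 and 7571 counts in the POA classes and 7104 and 5341 in the CGE classes.

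In POA cells Gria2 alone passed 2-fold (8.03% of all genes), at 264 CPM in post-mitotic-like and 104 in progenitor-like cells (log2 fold 1.26, 1.10 to 1.42). Gria1 was at 25.7 and 10.9 CPM (0.78) and Gria4 at 22.4 and 7.18 CPM (0.92). In CGE cells 4 members passed (10.8% of all genes), namely Gria1 at 43.9 and 9.72 CPM (1.45), Gria2 at 199 and 66.8 CPM (1.44), Gria4 at 33.9 and 6.97 CPM (1.37) and Grik3 at 52.4 and 12.1 CPM (1.499). Gria3 went the other way in CGE cells, at 5.91 CPM in post-mitotic-like and 10.4 in progenitor-like cells, counted in 3.36% and 7.11% of them. With 100 CPM added no member passed in either region.

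Between the post-mitotic-like cells of both regions no member passed 2-fold (3.37% of all genes). The largest difference was that of Grik3, at 25.9 CPM in POA and 52.4 in CGE cells (log2 fold -0.80, -0.97 to -0.62), followed by Gria1 (-0.59) and Gria4 (-0.44), with Gria2 at 0.39. Grik3 took 33.7% (31.2% to 36.4%) of the Grik counts of POA and 58.3% (55.8% to 60.7%) of those of CGE post-mitotic-like cells, with a count in 19.5% and 24.3% of cells, or 6.42% and 14.3% after thinning to 3251 counts. Haemoglobin genes, which these cells do not use, summed to 2139 CPM in the POA and 515 CPM in the CGE post-mitotic-like cells, so RNA of other cells was present in the droplets, and its part in the differences was not tested.

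**Figure D5:**
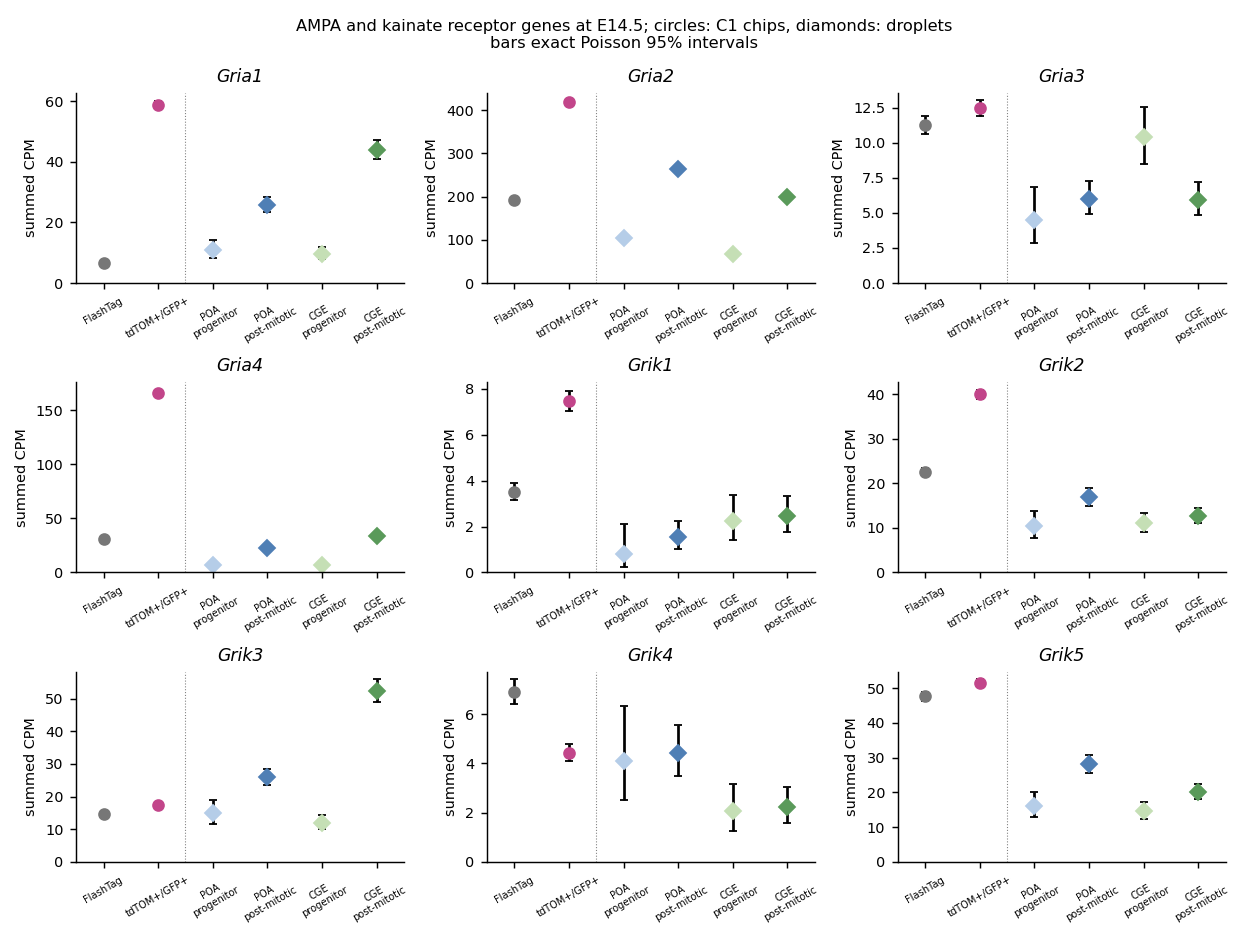
Summed CPM (vertical axis, linear from 0) of the 9 genes at E14.5 in FlashTag and tdTOM+/GFP+ POA cells on C1 chips (circles) and in progenitor-like and post-mitotic-like droplet cells of the POA and CGE (diamonds), with exact Poisson 95% intervals. Gria1, Gria2 and Gria4 are higher in tdTOM+/GFP+ than in FlashTag cells and higher in post-mitotic-like than in progenitor-like cells of both regions, and Grik3 is highest in CGE post-mitotic-like cells at 52.4 CPM.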

How the data were processed

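Gene counts per cell were used as deposited. The authors aligned reads to GRCm38 (mm10) with STAR and removed duplicates with UMI-tools for the C1 cells, and used Cell Ranger for the droplet cells, so the deposited values are counts per gene and cell. For the patched cells the methods state the same sequencing procedure as for the sorted postnatal cells. Versions of STAR and UMI-tools are not given in the sources used here. No column of values was left unused (0).

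The members and all gene lists were chosen with earlier results of these data known. Sort, age and subtype of a cell are those in its labels. Counts were summed per group, since no animal is named, and no test, p-value or standard error was computed. The background is the share past 2-fold among all genes that reached 10 CPM in either group. For shares of cells, each cell was thinned at random to percentile 10 of the depths compared, and shallower cells were left out. As a floor set by depth, 3 counts were 0.0194 to 0.672 CPM in the groups compared. Among sorted postnatal and patched cells a gene found in few cells had means of 21.4 to 32.7 counts per positive cell. The number of cells thus limited precision there as well. Genes beside the members were named by the smaller fold of P15 and P30 among those of at least 50 CPM, 3 per direction, and genes of like pattern were the 2 with the highest smaller correlation. No doublet caller was run. All 47 patch-seq cells were kept, although 3 exceeded 15% mitochondrial counts.

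The alternatives were mean CPM and mean log2 values of single cells, thinned sums, 1 or 100 CPM added, members of at least 10 CPM only, centred folds, a 1.5-fold threshold, the largest cell left out, both sorts pooled, cells of at least 100000 counts, well rows 1 to 20 or 21 to 40 of the chips, shared gene rows, mitochondrial genes left out, P15 to P18 patched cells, each patch-seq run left out, close marker sums and the top 5% of droplet cells left out. After the data were seen, the deepest patched cell, patched cells over 15% mitochondrial, shared barcodes and, between tables, unshared rows were left out. Analyses ran in Python (version 3.11.15) with pandas (2.3.3), scipy (1.17.1) and numpy (2.4.6), figures were drawn with matplotlib (3.10.9), and the steps were tested on simulated data.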

Additional observations from a re-analysis of the deposited data

Results flagged for a closer look

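Gria4 differed in the same direction of comparison with opposite signs at the ages, with a log2 fold of Dock5+NGCs over Lsp1+NGCs of -0.70 at P15 and 0.32 at P30. Grik2 did so for NGCs over Vip cells, with -0.29 at P15 and 0.43 at P30. When log2 values were averaged over single cells, the P30 value of Gria4 was -0.27 and the P15 value of Grik2 was 0.38, and the signs no longer differed. Each age is 1 sample per group, and neither difference was tested.

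Grik3 was above the compared groups in cells that entered no comparison. It was at 22.7 CPM in the 24 tdTOM+ Vip cells and at 14.49 CPM in the 81 tdTOM- cells of inconclusive label at P15, where the highest compared group was at 4.11 CPM. At P30 it was at 43.0 CPM in the 15 tdTOM+ Vip cells, where the highest compared group was at 27.6 CPM. A single cell gave 67.4% of the Grik3 counts of the P15 tdTOM+ Vip cells and 85.2% of those of the P30 tdTOM+ Vip cells. With 1 sample per group, no group could be searched for a sample far from the others.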

How the results depend on the processing

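Of 189 counts of members past 2-fold under an alternative, 146 were within 1.5 times the reported count and 43 were not. Of the 28 folds past 2-fold, 27 kept their sign and 7 stayed past 2-fold under all alternatives run for them. These were Grik1 in Dock5+NGCs over Lsp1+NGCs at P15 and in patch-seq and in NGCs over Vip cells at both ages, Gria3 in NGCs over Vip cells at P30, Grik2 in NGCs over other Lamp5 cells at P30 and Gria4 at E14.5. The exception in sign was Grik4 in NGCs over Vip cells at P15, at 0.43 in well rows 1 to 20.

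For Dock5+NGCs over Lsp1+NGCs at P15 the count of 1 was 2 with thinned sums, with 1 CPM added, with a 1.5-fold threshold and in well rows 21 to 40. At P30 the count of 1 was 2 with mean CPM, with mean log2 values, with thinned sums and in well rows 1 to 20, 3 with 1 CPM added or a 1.5-fold threshold, and 0 with 100 CPM added. In patch-seq the count of 3 was 1 with mean log2 values, with 100 CPM added or without cells over 15% mitochondrial, 5 with thinned sums or 1 CPM added and 6 at 1.5-fold, and it ranged from 2 to 5 with each run left out (5 without run 5). For NGCs over Vip cells the count of 2 at P15 was 1 with 100 CPM added and 4 at 1.5-fold, and that of 4 at P30 was 2 with 100 CPM added. For NGCs over other Lamp5 cells the counts of 5 and 3 were each 1 with 100 CPM added, and 3 and 1 with both sorts pooled.

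For the sorts of Lsp1 cells the P15 count of 1 was 2 with mean CPM, thinned sums, 1 CPM added, a 1.5-fold threshold or the largest cell left out, and 0 with mean log2 values or 100 CPM added. The P30 count of 0 was 1 with mean log2 values or 1 CPM added, and 2 at 1.5-fold or in well rows 21 to 40. At E14.5 the count of 3 was 1 with 100 CPM added. In POA droplets the count of 1 was 3 with 1 CPM added or at 1.5-fold and 0 with 100 CPM added, in CGE droplets that of 4 was 1 with mean log2 values and 0 with 100 CPM added, and between the regions that of 0 was 2 at 1.5-fold. The added CPM moves low genes by construction, and the cause of the other changes was not tested.

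No paired analysis was possible because the sorted and embryonic cells carry no animal or shared replicate in their labels. The patched cells came from 8 runs with both subtypes and were compared within runs by value, with no test over runs, since the labels do not say what the cells of a run share. The intervals cover counting error only, so they bound neither the spread between animals nor that between chips.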
